A study of Mus musculus with 24 samples.

Results

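The genes that radial glia use for their filaments, membrane and junctions, Vim, Nes, Prom1, Gja1, Cdh2 and Ezr, were followed through all 24 libraries of an RNA-seq series on mouse embryonic archicortex (ARK). The ARK is the medial edge of the forebrain that holds the dentate neuroepithelium (DNE) and the cortical hem (CH). The 6 genes were chosen by name, out of 51912 genes listed, and all 6 were among the 16454 genes abundant enough to be tested. All embryos were of mixed C57BL/6J;MF1 strain. The groups were Sox9fl/fl;Sox1Cre mutants at E12.5, Sox9+/+;Sox1Cre controls at E12.5, the same 2 genotypes at E13.5, and at E13.5 also Sox9fl/fl;NestinCre mutants and Sox9+/+;NestinCre controls, with 4 libraries each. Controls therefore carried the Cre as well, and mutants differed from them by floxed Sox9 alleles. Sox1Cre, a knock-in at the Sox1 locus, deletes Sox9 early and in the whole ARK. The NestinCre transgene acts later, and at E13.5 its deletion covers the DNE but little of the CH. The comparisons ask which genes depend on SOX9 in the whole ARK and which in its dentate part. Libraries held between 16163560 and 49445219 reads on genes, with a median of 23016925. Whether a library came from 1 embryo is not stated, so p-values measure the spread between these libraries, which may be partly technical.

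Radial glia are the elongated stem cells of the embryonic cortex. They span the wall from the ventricle to the pia, and their long fibres contain the intermediate filament proteins vimentin and nestin. At the ventricular surface they are held together by adherens junctions and coupled by gap junctions, and their apical membrane carries prominin-1 and is tied to actin by ezrin. Loss of the adherens junctions is known to disturb the scaffold along which newborn neurons migrate. None of 20 radial glia markers was at 0 throughout, but the same held for the meningeal, choroid plexus, erythroid and microglial markers. It therefore does not identify the tissue. The radial glia markers summed to between 36549 and 57644 normalized counts. The markers of Cajal-Retzius cells, which leave the CH, were led by Reln. SOX9 is a transcription factor of neural stem cells that also promotes astrocyte formation.

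Vim, which encodes vimentin, lies on the forward strand at chr2:13573927-13582826 (ENSMUSG00000026728, GRCm38 as in the GENCODE M21 annotation). Nes, which encodes nestin, lies on the forward strand at chr3:87971078-87980451 (ENSMUSG00000004891). Prom1, the gene of the pentaspan membrane protein prominin-1, lies on the reverse strand at chr5:43993620-44102032 (ENSMUSG00000029086), and 424 of its exonic bases are shared with the antisense gene Gm16401. Gja1, which encodes the gap junction protein connexin 43, lies on the forward strand at chr10:56377330-56402513 (ENSMUSG00000050953). Cdh2, which encodes N-cadherin of the adherens junction, lies on the reverse strand at chr18:16588877-16809246 (ENSMUSG00000024304). Ezr, which encodes ezrin, lies on the reverse strand at chr17:6738041-6782784 (ENSMUSG00000052397), with 4 exonic bases shared with Sytl3. The strand setting of the counting is not given in the sources used here, so reads of Prom1 and Gm16401 in the shared bases cannot be told apart. The mean of Gm16401 itself over the 24 libraries was 81.5 normalized counts.

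The stretch before the RefSeq start sites of the 2 filament genes is shown. It was chosen because these genes moved in opposite directions with age in Sox1Cre mutants, while neither passed in controls. In the 30 bases from 35 to 6 bases before the Vim start (GRCm38.p6, chr2:13574276-13574305, forward strand), capitals mark a TATAAA match. A longer annotated Vim transcript places this stretch inside its 5′ UTR.

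Vim: tgtTATAAAagcagcgcccttggcgttgtc

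The 250 bases before the Nes start (chr3:87970843-87971092, forward strand) hold no TATAAA and no CCAAT on either strand, so nothing is capitalised. Over the same 250 bases Vim had 2 CCAAT matches, 1 on each strand, whose first bases lie 196 and 94 bases before the start.

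Nes: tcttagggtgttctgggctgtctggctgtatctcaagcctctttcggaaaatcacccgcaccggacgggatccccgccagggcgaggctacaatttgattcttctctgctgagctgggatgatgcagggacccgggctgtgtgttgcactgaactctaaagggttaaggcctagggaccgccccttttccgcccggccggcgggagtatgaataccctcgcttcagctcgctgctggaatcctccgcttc

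TATAAA occurred on either strand in 13.6% of the 32851 RefSeq promoter windows of 300 bases (250 before and 50 after the start), and CCAAT in 37.4%. The SOX core motifs ACAATG and ACAAAG occurred on either strand in 12.6% and 18.7% of windows. Neither was found in the windows of Vim, Nes, Prom1, Gja1 or Ezr. For Cdh2 no promoter sequence was read, and no result is given. A missing match says only that these letters are not in the window.

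Per kilobase of the principal transcript, Vim was the most abundant of the 6, at 15318 normalized counts per kilobase as the mean of 24 libraries. Ezr followed at 5588, Cdh2 at 2796, Nes at 2505.5, Gja1 at 2117 and Prom1 at 936.98 normalized counts per kilobase. In every one of the 6 groups all Vim libraries lay above all Ezr libraries, and all Gja1 libraries lay above all Prom1 libraries. Cdh2 and Nes overlapped in all 4 groups at E13.5, and Nes and Gja1 overlapped in both E12.5 groups and in the E13.5 Sox1Cre controls. Per kilobase of all annotated exons, Nes stood above Cdh2 instead, at 2392 against 1679 normalized counts per kilobase.

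Sox9 itself checked the labels. At E13.5 the Sox1Cre controls had 5218, 5912, 5450 and 5731 normalized counts of Sox9, and the mutants had 3563, 2828, 3384 and 3677. The difference was -0.74 on the log2 scale (SE 0.12, limma adjusted p = 0.0021). NestinCre mutants were also lower than their controls, with a log2 difference of -0.71 (SE 0.12, limma adjusted p = 0.0297, a call kept in 1 of 8 analyses that left out 1 library, that without A23, and lost with Xist as a covariate), and E12.5 Sox1Cre mutants had a log2 difference of -1.02 (SE 0.12, limma adjusted p = 6.28e-05). In all 3 comparisons every mutant library lay below every control library. The Sox9 difference in Sox1Cre mutants minus that in NestinCre mutants at E13.5 was -0.02 (SE 0.17, limma adjusted p = 0.996). Sox9 counts of the whole dissected tissue thus did not show a larger loss with Sox1Cre. The counts are per gene and do not separate the floxed exons from the rest of the transcript, and the dissected tissue includes cells that the Cre does not reach. Sox1, the locus of the knock-in, averaged 1135 ± 163 (SD, n = 4) normalized counts in E13.5 Sox1Cre controls and 2127 ± 309 (SD, n = 4) in NestinCre controls. The 2 groups did not overlap, while the log2 difference of -0.91 (SE 0.19) missed the threshold (limma adjusted p = 0.0529).

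Vim was the only one of the 6 genes that passed the test between genotypes, and it was lower in Sox1Cre mutants at E13.5. The controls had 34042, 34108, 34509 and 33067 normalized counts, and the mutants had 27096, 29593, 27048 and 29407. All 4 mutant libraries lay below all 4 control libraries, and the control group was the tightest of all 6 groups for this gene, with an SD of 1.8% of its mean. The mean fell from 33932 ± 612 (SD, n = 4) to 28286 ± 1404 (SD, n = 4), a log2 difference of -0.26 (SE 0.06, 95% interval -0.39 to -0.14, limma adjusted p = 0.0289). The exact permutation test gave p = 0.0286, the smallest two-sided value that 4 against 4 libraries allow. In this comparison 0.924% of all genes tested passed, and 0.559% passed as lower in mutants, and 2.60% had all mutant libraries below all controls. The study had itself named Vim from these libraries, so its direction is not independent evidence. In bulk tissue, fewer cells that express a gene and less RNA per cell cannot be told apart.

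The Vim call was a narrow one. It passed in 7 of 10 alternative analyses and in 4 of 8 analyses that left out 1 library (it was lost without A3, A5, A6 or A7), and the log2 difference stayed between -0.29 and -0.24 when single libraries were left out. It was lost with quantile normalization (log2 difference -0.16, limma adjusted p = 0.482), with Xist as a covariate (-0.24, limma adjusted p = 0.0928) and when only the 8 libraries of the comparison were fitted (-0.26, limma adjusted p = 0.271).

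In NestinCre mutants Vim had 31194, 33067, 30424 and 30236 normalized counts, against 35268, 36032, 31076 and 32996 in their controls. The groups overlapped, and the log2 difference of -0.11 (SE 0.06, limma adjusted p = 0.807) did not pass. With quantile normalization it was -0.22 (limma adjusted p = 0.546), a larger difference than that of the Sox1Cre mutants under the same setting. At E12.5 the Sox1Cre mutants had 34035, 36207, 35179 and 41418 normalized counts and the controls 35811, 37594, 37984 and 38823. The highest Vim value of all 24 libraries was in a mutant of that age (A12), and the log2 difference was -0.04 (SE 0.06, limma adjusted p = 0.832). None of the 6 genes passed in either comparison, in which 0.0669% and 0.723% of all genes did.

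Whether the Vim difference itself differed between settings was tested directly. The log2 difference in Sox1Cre mutants minus that in NestinCre mutants was -0.15 (SE 0.08, 95% interval -0.32 to 0.02, limma adjusted p = 0.697). Its sign turned with quantile normalization (0.062), so no direction between the Cre lines can be read from it. The difference at E13.5 minus that at E12.5 was -0.23 (SE 0.08, 95% interval -0.40 to -0.06, limma adjusted p = 0.606), and -0.14 with quantile normalization. None of the 6 genes passed in either test. Between Cre lines 0.0425% of all genes passed. Between ages limma called 0 of 16454 genes (0%), although 1217 (7.40%) had an unadjusted p under 0.05, Vim among them, and DESeq2 called 20, none of them among the 6 genes.

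**Figure D1:**
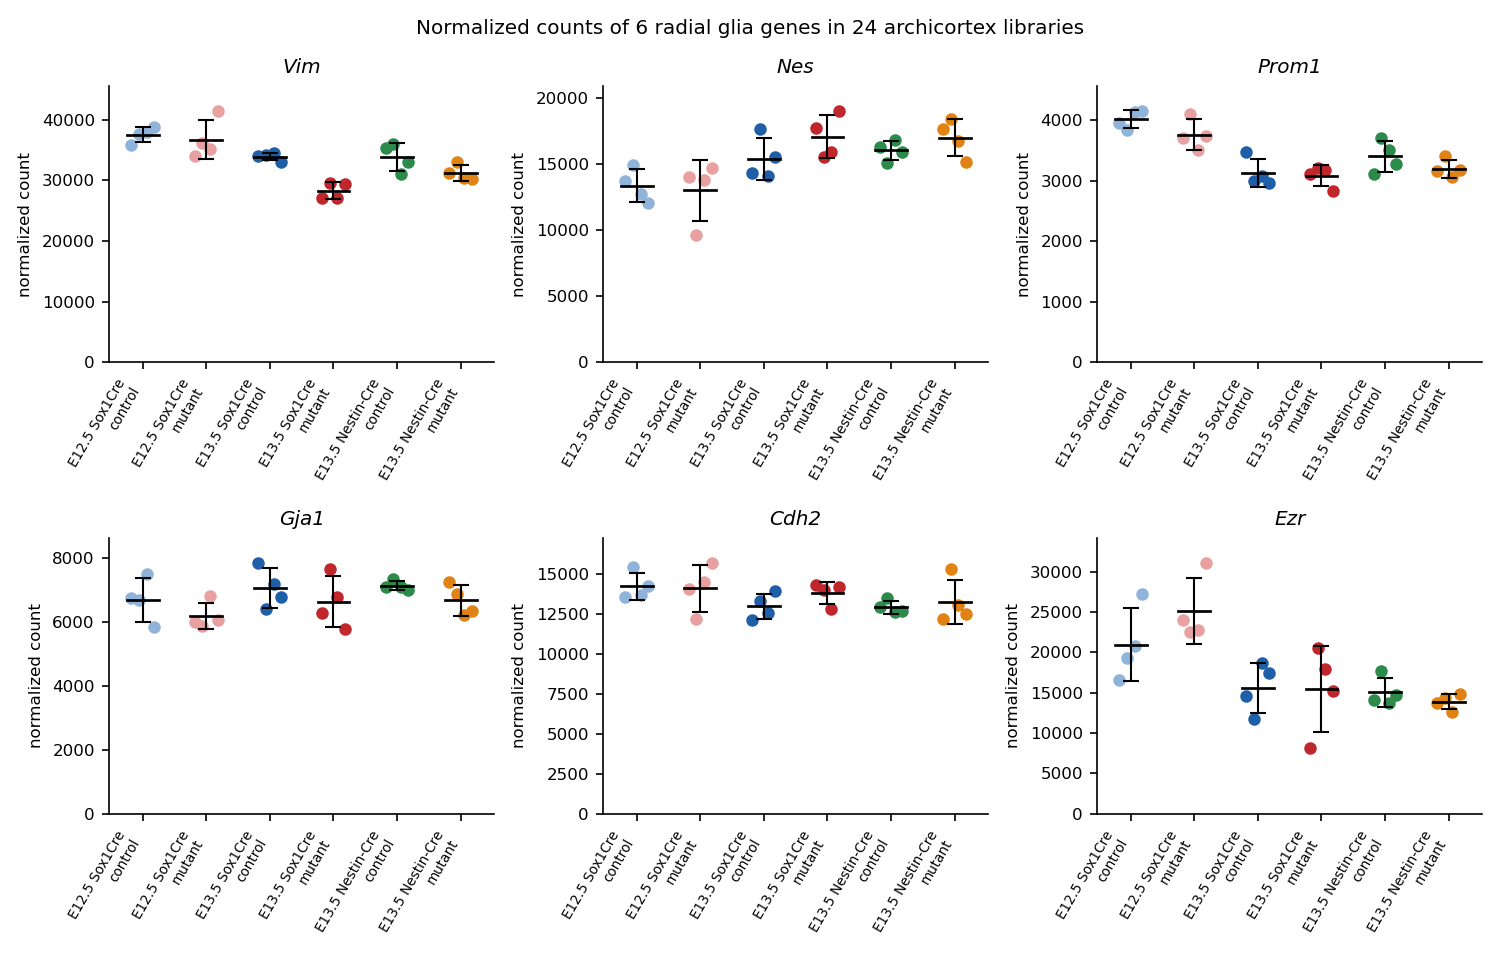
Normalized counts (linear axis from 0) of the 6 genes in 24 libraries, 1 point per library, grouped by age, Cre line and genotype. Horizontal lines are group means and error bars are the SD of 4 libraries. Vim in the 4 E13.5 Sox1Cre mutants, between 27048 and 29593, lies below all 4 controls, and Ezr has 1 E13.5 mutant library at 8122.

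Nes, the other filament gene, did not follow Vim. At E13.5 the Sox1Cre controls had 14387, 17661, 14154 and 15531 normalized counts and the mutants 17786, 15550, 15981 and 19043, with the mutant mean 10.7% higher. Of the mutants, 2 lay above every control and the others within the control range, and the log2 difference of 0.15 (SE 0.11, 95% interval -0.08 to 0.37, limma adjusted p = 0.65) did not pass. In NestinCre mutants, with 17690, 18439, 16808 and 15221 against 16324, 15145, 16862 and 15973 normalized counts, the log2 difference was 0.08 (SE 0.11, limma adjusted p = 1). At E12.5 it was -0.05 (SE 0.11, limma adjusted p = 0.873), with 9641 normalized counts in 1 mutant (A10) as the lowest Nes value of the series. As a description chosen after the values were seen, the ratio of Vim to Nes counts ranged from 1.93 to 2.44 in the E13.5 Sox1Cre controls and from 1.52 to 1.90 in their mutants. In the NestinCre groups it ranged from 1.84 to 2.38 in controls and from 1.76 to 1.99 in mutants, which overlapped, and at E12.5 from 2.51 to 3.22 in controls and from 2.42 to 3.75 in mutants.

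Prom1, which marks the apical membrane and the midbody fragments that neural progenitors release, was close between genotypes at E13.5. Sox1Cre controls had 3468, 3004, 3080 and 2959 normalized counts and mutants 3111, 3213, 3185 and 2825, with a log2 difference of -0.02 (SE 0.06, 95% interval -0.15 to 0.11, limma adjusted p = 0.948). Its sign turned in 2 of 10 alternatives, so no direction can be read from it. In NestinCre mutants it was -0.09 and at E12.5 -0.10, each with an SE of 0.06 and neither past the threshold.

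Cdh2, the cadherin of the apical junction, had the smallest genotype difference of the 6 genes at E12.5. At E13.5 the Sox1Cre controls had 12119, 13279, 12554 and 13916 normalized counts and the mutants 14309, 14001, 12780 and 14156. Of the mutants, 3 lay above all controls, and the log2 difference of 0.09 (SE 0.07, 95% interval -0.06 to 0.24, limma adjusted p = 0.691) did not pass. It was 0.03 in NestinCre mutants and -0.02 at E12.5, each with an SE of 0.07.

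Gja1 had a mean below that of the controls in all 3 mutant groups, without a call in any. Its log2 differences were -0.09 in Sox1Cre mutants at E13.5 (limma adjusted p = 0.723), -0.10 in NestinCre mutants (limma adjusted p = 0.974) and -0.11 at E12.5 (limma adjusted p = 0.589), each with an SE of 0.08. The E13.5 Sox1Cre controls ranged from 6430 to 7867 normalized counts and their mutants from 5786 to 7658, so the groups overlapped.

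Ezr varied most between libraries. At E13.5 the Sox1Cre mutants had 8122, 20537, 17929 and 15210 normalized counts and the controls 14572, 11737, 18660 and 17487. The mutant range enclosed the control range at both ends, and the log2 difference was -0.07 (SE 0.21, 95% interval -0.51 to 0.36, limma adjusted p = 0.942). Without A1, the library at 8122, it became 0.21, and without A7, the control at 18660, it became 0.020. Neither passed, and the sign turned with either of these libraries left out. The differences in NestinCre mutants (-0.11) and at E12.5 (0.27, limma adjusted p = 0.598) had the same SE of 0.21, which made the intervals of this gene the widest of the 6.

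**Figure D2:**
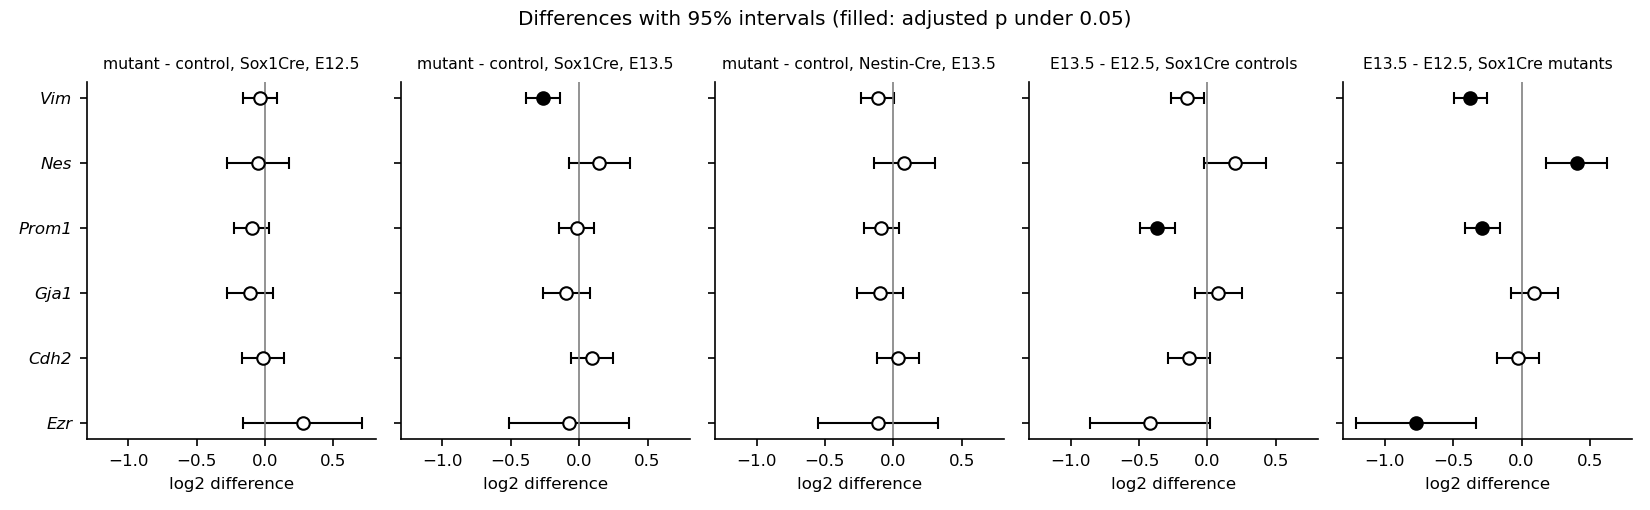
Log2 differences of the 6 genes (points) with 95% intervals (bars) from limma in 5 comparisons: mutant minus control in 3 pairs of groups, and E13.5 minus E12.5 in Sox1Cre controls and mutants. Filled points passed an adjusted p of 0.05. Vim is the only filled point among genotype differences, while Prom1 is filled at the age step in both genotypes.

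Several of the 6 genes changed between the 2 ages. From E12.5 to E13.5, Prom1 fell in Sox1Cre controls, from 3960, 3838, 4142 and 4151 normalized counts to the E13.5 values above. The log2 difference was -0.37 (SE 0.06, limma adjusted p = 0.0026), and all E13.5 libraries lay below all E12.5 libraries. The call was lost with Xist as a covariate (-0.29, limma adjusted p = 0.103). It was the only one of the 6 to pass in controls, where 11.5% of all genes passed, 5.17% as lower and 6.33% as higher, and where 8.74% of all genes had every E13.5 library below every E12.5 library. In mutants Prom1 fell as well, from 3702, 4111, 3502 and 3737, by 0.29 on the log2 scale (SE 0.06, limma adjusted p = 0.0023). Age cannot be told apart from litter, collection or library batch. Control calls across age also depended on Xist level. With log2 Xist as a covariate 0 of 16454 genes passed in controls and 4281 in mutants, where 4263 passed without it. How far Xist level followed age was not tested.

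In mutants 4 of the 6 genes passed, 3 lower and 1 higher, against 25.9% of all genes, 12.1% lower and 13.8% higher. Vim fell by 0.37 on the log2 scale (SE 0.06, limma adjusted p = 0.000276), with a mean 22.9% lower, and by 0.24 with quantile normalization (limma adjusted p = 0.0283). Ezr fell by 0.77 (SE 0.21, limma adjusted p = 0.0107), from E12.5 values of 24058, 22572, 22770 and 31110 normalized counts, and without A1 the step was -0.49 (limma adjusted p = 0.0341). Nes rose by 0.40 (SE 0.11, limma adjusted p = 0.0095), from 14036, 9641, 13820 and 14723. Without A10, the library at 9641, it rose by 0.26 (limma adjusted p = 0.035). Endothelial and pericyte markers summed to 6911 in A10, against 12811 to 14579 in the other E12.5 mutants. Its meningeal sum of 32348 was the lowest of that group, while its choroid plexus sum of 34504 lay within the range of the others. Their part in the Nes step was not tested. When only the 8 libraries compared were fitted, the calls of Ezr (limma adjusted p = 0.0875) and Nes (0.0836) were lost. For these 3 genes and Prom1 the E13.5 and E12.5 mutants did not overlap, as was the case for 23.1% of all genes.

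Controls had the same signs for Vim (-0.15, SE 0.06, limma adjusted p = 0.113), Nes (0.20, SE 0.11, limma adjusted p = 0.236) and Ezr (-0.42, SE 0.21, limma adjusted p = 0.205), none of which passed. All E13.5 controls lay below all E12.5 controls for Vim, and the groups overlapped for Nes and Ezr. Whether the age step differed between genotypes is the same contrast as the difference between ages given above, in which none of the 6 passed. Gja1 and Cdh2 did not pass in either genotype, with log2 differences of 0.08 and -0.13 in controls and 0.09 and -0.02 in mutants. Between the Sox1Cre and NestinCre controls at E13.5 none of the 6 passed, against 0.243% of all genes.

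Markers of other cells differed between the ages as well. The summed normalized counts of 11 neuronal genes, of which Map2 was the most abundant, lay between 30055 and 34859 at E12.5 and between 36888 and 58487 in the E13.5 Sox1Cre libraries. Of these 11, 9 rose with age in controls and 8 in mutants, where 6.33% and 13.8% of all genes rose, and the median log2 difference of the list was 0.86 and 1.07. The 9 erythroid genes, led by Hbb-y, an embryonic globin, included 6 that fell in controls and 5 that fell with 1 that rose in mutants, where 5.17% and 12.1% of all genes fell, and the median of the list was -0.97 and -1.04. Of the 7 intermediate progenitor genes, Eomes, Neurod1 and Gadd45g rose in both genotypes (medians 0.41 in controls and 0.48 in mutants). Every control count of passing genes across age depended on leaving Xist out of the fit. With log2 Xist as a covariate 0 of 16454 genes passed across age in controls in limma, although 2460 had an unadjusted p under 0.05. Among genes named below, the control log2 difference with the covariate was 2.30 for Slc6a13 (2.53 without it) and 0.56 for Dcn (0.47). That of Afdn shrank to 0.16 (0.32 without it).

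Calls and medians of several lists depended on single libraries. Without single libraries the count of all genes passing ranged from 794 to 2629 in controls and from 2958 to 4723 in mutants. Of the 9 meningeal genes, 4 fell in mutants, Lum, Foxc1, Foxd1 and Twist1, beside 12.1% of all genes. Dcn and Slc6a13 rose in both genotypes, beside 6.33% of all genes in controls and 13.8% in mutants. The meningeal median was -0.55 in mutants and -0.32 in controls, and when single libraries were left out it ranged from -0.70 (without A2) to -0.32 (without A1) in mutants and from -0.40 to -0.17 (without A8) in controls. Without A1 or A4 only 1 of the meningeal genes fell in mutants, and without A9, A11 or A12 only 2 did. In controls the Dcn call was lost without A6, A7, A8, A14 or A16, and without A5 1 gene passed as lower. Of the 7 Cajal-Retzius genes, Reln, Calb2 and Nhlh2 rose and Trp73 and Lhx5 fell in mutants, beside 13.8% and 12.1% of all genes. These calls held without any single library. In controls 3 of the 7 passed as higher, beside 6.33% of all genes, and none without A6 or A8. The control median of the list took either sign when single libraries were left out (-0.0022 to 0.12). No direction of the list can therefore be read there. The progenitor calls in controls fell from 3 to 0 without A6 or A15 and to 1 without A7, A8, A13, A14 or A16. The progenitor median ranged from 0.21 (without A6) to 0.63 (without A5) in controls and from 0.27 (without A1) to 0.69 (without A2) in mutants. Of the 8 choroid plexus genes Kl alone rose in mutants, beside 13.8% of all genes. None passed as higher without A2, A3, A4, A9 or A12, while 5 did without A1. The choroid plexus median in mutants was 0.36 and ranged from 0.08 (without A3) to 1.07 (without A1), and in controls it was 0.70, where none passed. No gene of these lists was at 0 in all libraries. Their part in the age differences of the 6 genes was not tested.

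Within the E13.5 Sox1Cre mutants, A1 stood apart. Its summed choroid plexus markers, led by Ttr, reached 7994 normalized counts against 66675 to 90284 in the other 3 mutants and 29687 to 68245 in controls, and its summed meningeal markers, led by Col3a1, reached 17744 against 29167 to 42648 and 31008 to 42930. Endothelial and pericyte markers, led by Kdr, summed to 6080 in A1 and to 11734 to 15081 in the other 3 mutants. This library also had the lowest Ezr of the series. All 9 meningeal markers had log2 differences below 0 in Sox1Cre mutants (median -0.25), and none passed. Without A1 the median was -0.04, with 6 of the 9 below 0. None of the 10 endothelial markers passed either, with a median of -0.27, which became -0.0096 without A1, with 5 of the 10 below 0. None of the 8 choroid plexus markers passed (median 0.05), and without A1 their median was 0.81 and 1 passed as higher. Without A1 the Vim difference was -0.24 (limma adjusted p = 0.0366). Meningeal and vascular cells are known to express Vim as well, and their part in the Vim difference was not tested.

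Other genes of the same structures were compared between the same groups, in which 0.924% of all genes passed and 0.559% passed as lower. Of 13 intermediate filament genes tested, Vim alone passed in Sox1Cre mutants at E13.5, and their median log2 difference was 0.15 (-0.015 without A4) against -0.0046 for all genes. Of 24 apical junction and polarity genes 1 passed, Ctnnd1, which encodes p120-catenin, the partner that holds cadherins at the membrane. It had 7847, 7291, 7427 and 7640 normalized counts in controls and 6747, 6941, 6539 and 6572 in mutants, without overlap, and a log2 difference of -0.17 (SE 0.04, limma adjusted p = 0.0388). This call held in 6 of 10 alternatives, quantile normalization not among them, and in 2 of 8 analyses that left out 1 library, those without A1 or A2. The median of the list was -0.0027. Ctnnb1, the β-catenin gene and the most abundant of this list, lay between 33469 and 34216 in controls and between 31605 and 35411 in mutants. None of the 10 genes of ezrin, radixin, moesin and their partners (median -0.08, and 0.03 without A1) and none of the 9 gap junction genes tested (median -0.09) passed.

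Among 20 radial glia markers, 2 passed as lower in Sox1Cre mutants at E13.5, beside the 0.559% of all genes. Hopx, a homeodomain protein of radial glia and hippocampal stem cells, was among them, with a log2 difference of -0.60 (SE 0.14, limma adjusted p = 0.0451). This call held in 6 of 10 alternatives and in 2 of 8 analyses that left out 1 library, those without A1 or A7. The median of the list was -0.03. The study had named Hopx from these libraries. Of 11 neuronal genes Nhlh1, a helix-loop-helix factor of newborn neurons, had a log2 difference of -0.69 (SE 0.14, limma adjusted p = 0.0138), a call that was lost without A2, A3 or A6, with Xist as a covariate (limma adjusted p = 0.0579) and with only the 8 libraries compared (limma adjusted p = 0.167). The list as a whole did not follow it: 7 of the 11 were above 0, and the median of 0.08 ranged from -0.07 to 0.27 when single libraries were left out. No gene passed among intermediate progenitor (7 genes), Cajal-Retzius (7), erythroid (9) or microglial (8) markers.

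At E12.5 Ttyh1, which encodes a membrane protein of the tweety family, was among 4 tested genes of the prominin list and fell from 10121, 10672, 8506 and 9943 normalized counts in controls to 6861, 3640, 7189 and 4295 in mutants. The groups did not overlap, and the log2 difference was -0.89 (SE 0.15, limma adjusted p = 0.0032). The call was lost when only the 8 libraries compared were fitted (limma adjusted p = 0.0935). Ttyh1 was the only one of the 4 to pass, where 0.541% of all genes passed as lower and 5.93% had all mutant libraries below all controls. Hopx passed at this age too, at -0.63 (SE 0.14, limma adjusted p = 0.0406), but only in 7 of 10 alternatives and in 2 of 8 analyses that left out 1 library, those without A11 or A15. No gene of any of the 14 lists passed in NestinCre mutants, in which 0.0669% of all genes did.

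**Figure D3:**
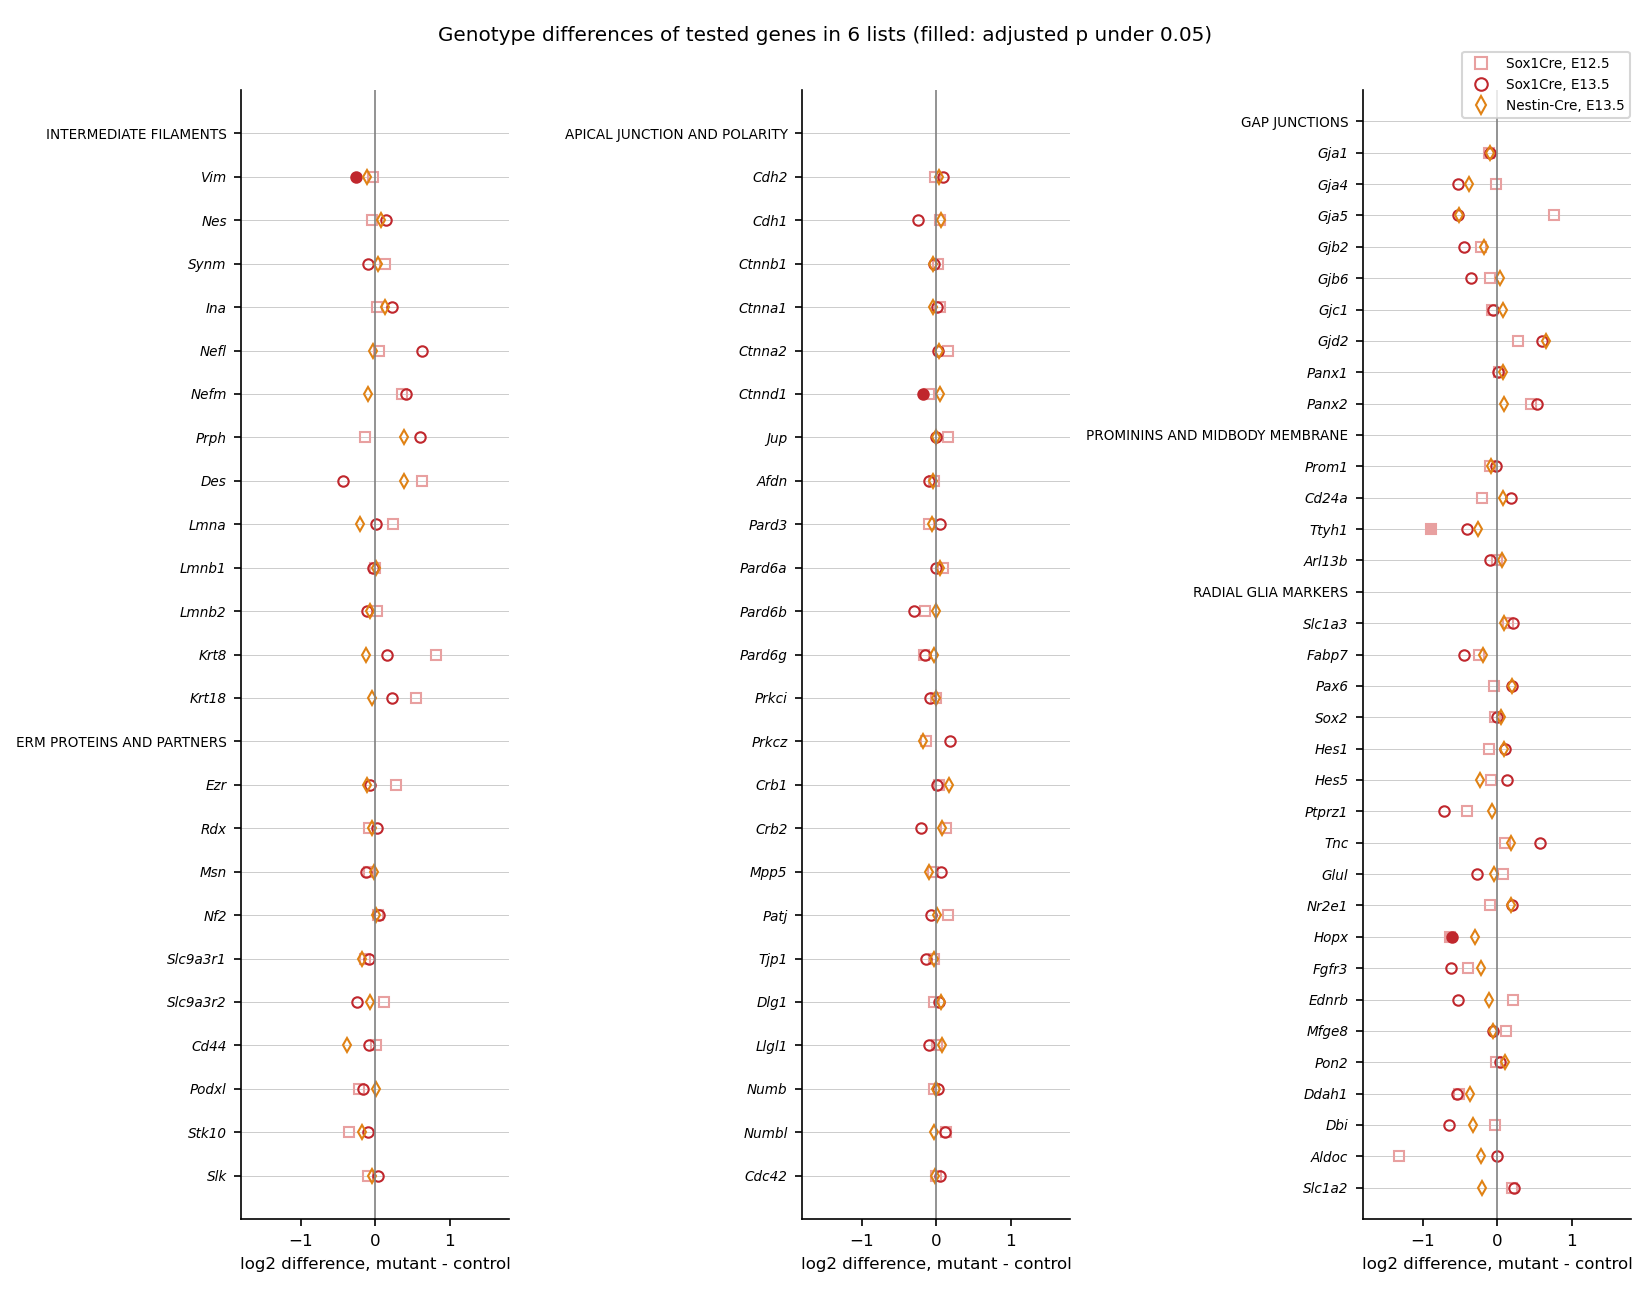
Log2 differences between mutants and controls for the tested genes of 6 lists (1 gene not shown), 1 marker per comparison (squares Sox1Cre E12.5, circles Sox1Cre E13.5, diamonds NestinCre E13.5). Filled markers passed an adjusted p of 0.05, which among the genes shown were Vim, Ctnnd1 and Hopx at E13.5 and Ttyh1 and Hopx at E12.5.

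The junction genes were also followed across age. Of the 24 apical junction and polarity genes, 10 passed in Sox1Cre mutants, 8 lower and 2 higher, beside 12.1% and 13.8% of all genes, and 2 passed in controls, 1 in each direction, beside 5.17% and 6.33% of all genes. The median log2 difference of the list was -0.08 in both genotypes. Crb2, a Crumbs polarity protein of the apical membrane, fell by 0.52 on the log2 scale in mutants (SE 0.09, limma adjusted p = 0.000542), and Dlg1, a scaffold protein, fell in both genotypes. Afdn, the afadin gene, rose in both, but in mutants its call was lost without A1, without A10 and when only the 8 libraries compared were fitted. Without A1, 7 junction genes passed in mutants, all as lower. Among filament genes, Prph and Ina, 2 neuronal filaments, rose in both genotypes, Prph by 3.28 in controls and 4.03 in mutants. Of 20 radial glia markers 6 rose in controls, beside 6.33% of all genes, while 10 rose and 1 fell in mutants, beside 13.8% and 12.1%. The median of the list was 0.31 in controls and 0.24 in mutants (0.15 without A1). Without A6 or A8, 2 of the 20 passed in controls, and without A4, 7 passed in mutants. With Xist as a covariate none of the control calls across age held, those of Prph and Ina included. The control log2 difference was then 3.01 for Prph (limma adjusted p = 0.0907) and 1.39 for Ina (1.575 without the covariate, limma adjusted p = 0.11). Dlg1 was at -0.21 (-0.26 without the covariate) and Afdn at 0.16 (0.32). The difference in the counts of passing genes between genotypes was not tested.

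Over 24 libraries, the genes whose levels ran most like Vim were Gprc5b (Pearson r 0.954), Wnt7b (0.911) and Mob3a (0.871), among 11830 genes with a mean of at least 100 normalized counts. After the group means were removed, the 3 correlations were 0.823, 0.601 and 0.656. Gprc5b, an orphan receptor gene, also differed in Sox1Cre mutants at E13.5, with a log2 difference of -0.44 (SE 0.07, limma adjusted p = 0.0031), as did Wnt7b, which encodes a WNT ligand, with -0.64 (SE 0.13, limma adjusted p = 0.0154), although the call of Wnt7b was lost without A4 or A5 and with Xist as a covariate (limma adjusted p = 0.0602). Mob3a did not pass (-0.10, SE 0.06, limma adjusted p = 0.547), and the study had named Wnt7b from these libraries. Libraries in a correlation share groups, depth and tissue composition, so the values are a description. Gprc5b, Wnt7b and Mob3a were picked for likeness to Vim over libraries that include the E13.5 Sox1Cre groups. Their differences there are therefore not independent of that of Vim.

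Nes ran most like Pantr1 (0.900), Arhgef2 (0.872) and Syngr3 (0.872), and Prom1 most like Cblb (0.931), Gpx1 (0.930) and Epb41 (0.921). Ezr ran closest of all 6 to another gene, Bmp6 (0.975, and 0.950 after group means were removed), which encodes a secreted bone morphogenetic protein, followed by Glmp (0.970) and Nkd1 (0.960), an inhibitor of WNT signalling. Cdh2 ran most like Spred3 (0.811), Sall3 (0.811) and Il17rd (0.805), and Gja1 had the weakest likeness, with Olfml2a (0.784), Bnc2 (0.726) and Lox (0.716).

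**Figure D4:**
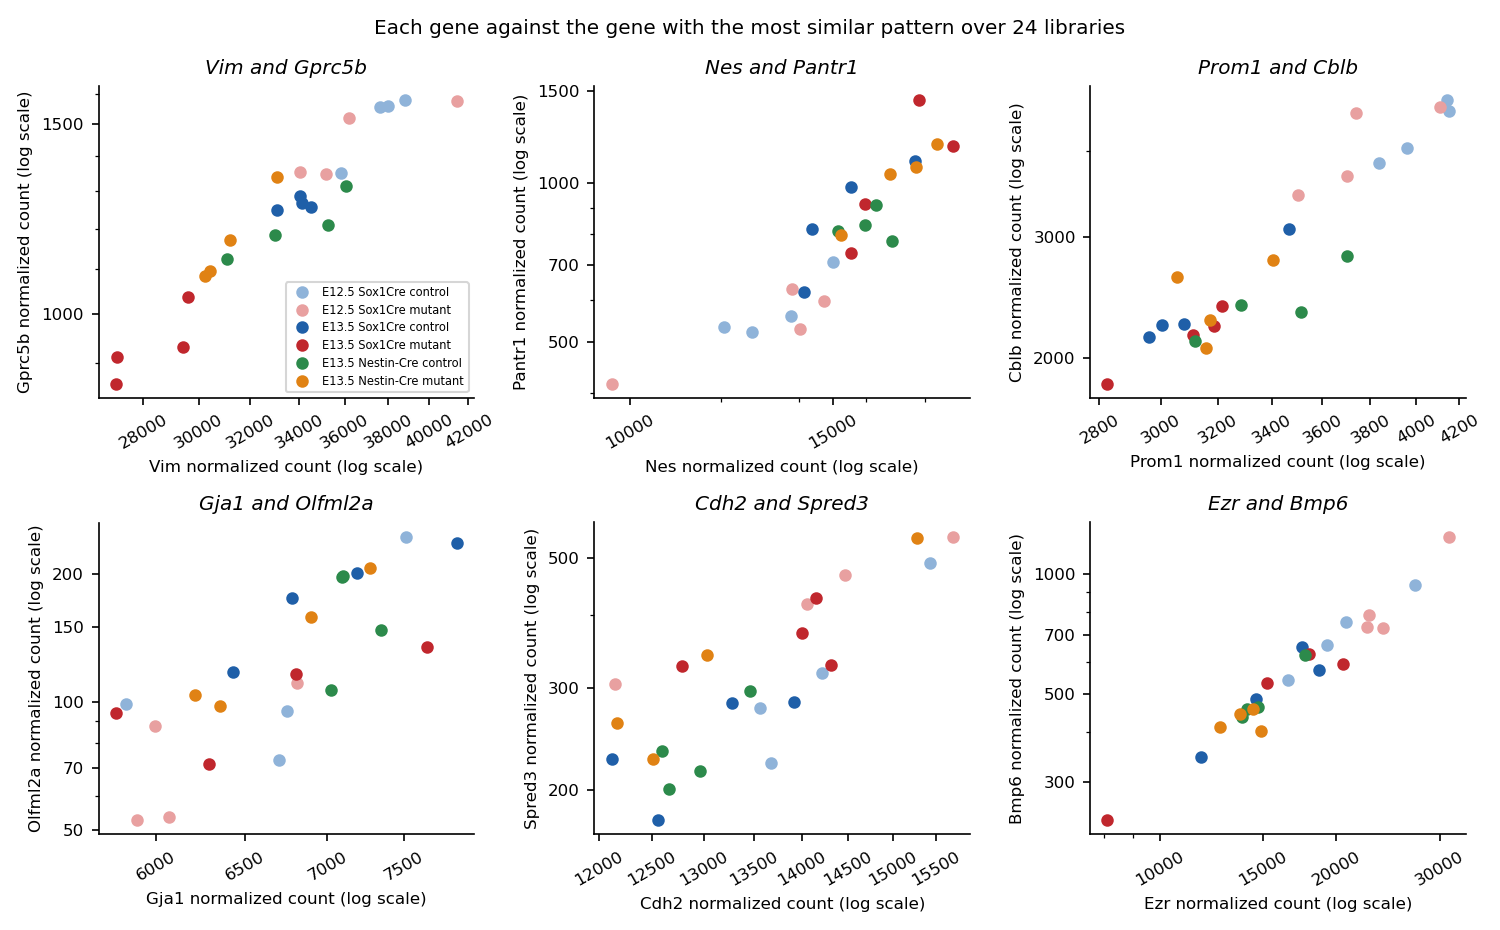
Each of the 6 genes (horizontal log axis, normalized counts) against the gene whose levels were most like it (vertical log axis), 1 point per library, coloured by group. Ezr and Bmp6 follow 1 line through all groups (Pearson r 0.975), while Gja1 and Olfml2a scatter most (0.784).

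Among the 6 genes themselves the correlations differed in sign. Vim and Nes had a correlation of -0.58 over 24 libraries and of 0.06 after group means were removed. Nes and Prom1 were at -0.76 and -0.56, and Nes and Cdh2 at 0.13 and 0.67. Prom1 and Sox9 were at -0.25 over all libraries and at -0.67 within groups.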

How the data were processed

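RNA from dissected archicortex was sequenced as mRNA libraries (KAPA mRNA HyperPrep, Illumina HiSeq). Per the labels and the study's methods, the authors trimmed reads with Trimmomatic 0.36, aligned them to GRCm38 with STAR 2.5.2a, estimated counts with RSEM 1.2.31 and divided them by DESeq2 size factors. The deposited signal is this normalized count per gene, without logs or pooling. All values were whole multiples of 1 read per library within 0.01, which gave the reads used for depth, edgeR and DESeq2. This step is less certain in A3, where 1 read and 1 unit nearly coincide. GENCODE M21 named 51719 of 51912 genes.

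Genes were kept that reached 10 normalized counts in 4 or more libraries. limma 3.58.1 (R 4.3.3, eBayes with trend) was fitted to log2(value + 1) with 1 mean per group over 24 libraries (18 residual degrees of freedom), with Benjamini-Hochberg adjustment over all genes and a two-sided threshold of 0.05. A log2 difference is on that scale. Single genes were also compared by an exact permutation test. On simulated counts for Sox1Cre at E13.5 (16275 genes), limma recovered 52% of changes of 0.5 and 78% of changes of 1 on the log2 scale, with 6.94% false calls. Alternatives were pseudocounts of 0.5 and 5, no filter, a mean of at least 100, quantile normalization, edgeR 4.0.16, DESeq2 1.42.0, log2 Xist as a covariate, array weights, only the libraries compared, and leaving out each library. Counting limits cover counting error only, since reads carry no molecular identifiers.

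The 6 genes and the 14 gene lists (155 genes) were chosen with earlier results of these data known. Besides the 6 genes, Sox9 and Sox1, genes are named if they passed in a genotype comparison (up to 5 per list, smallest adjusted p first), if they were among the most abundant of a list, or if they were 1 of the 3 most alike; genes named for a change with age were chosen after their values were seen. Python 3.11.15 with pandas 2.3.3 and matplotlib 3.10.9 made the summaries and plots. The values of 1 radial glia marker are not reported here, although it is part of the counts of its list.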

Additional observations from a re-analysis of the deposited data

Results flagged for a closer look

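For the 6 genes, Sox9 and Sox1, each of the 6 groups of 4 libraries was searched for a sample far from the others, 48 groups in all, and 1 was found. Sox1 reached 2054 normalized counts in library A1 of the E13.5 Sox1Cre mutants, while the other 3 mutants lay between 1293 and 1381. The gap took up 88.4% of the range of the group. By chance about 1 in 20 such groups stands out, so a single one among 48 is fewer than chance would give. This is the same library that had the lowest Ezr and the lowest sums of choroid plexus, meningeal and endothelial markers.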

How the results depend on the processing

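Under 10 alternatives, the Vim log2 difference in Sox1Cre mutants at E13.5 stayed negative and lost the call with quantile normalization (-0.16), the Xist covariate (-0.24) and only the libraries compared (-0.26); without single libraries it ranged from -0.29 to -0.24, and the call was lost without A3, A5, A6 or A7. Several differences that had not passed changed sign. In Sox1Cre mutants at E13.5, Prom1 was 0.0048 with quantile normalization and 0.030 with array weights (-0.045 to 0.031 without single libraries), and Ezr was 0.16 with array weights (-0.24 to 0.21). Without single libraries, Nes at E12.5 ranged from -0.12 to 0.088, Cdh2 at E12.5 from -0.071 to 0.052, Cdh2 in NestinCre mutants from -0.039 to 0.070 and Cdh2 across age in mutants from -0.094 to 0.030. With quantile normalization the Vim difference between Cre lines was 0.062 and Cdh2 across age in mutants 0.011. The cause of these changes was not tested. Across age, Prom1 in controls lost the call with the Xist covariate (-0.29, limma adjusted p = 0.103), and Nes and Ezr in mutants lost it when only the 8 libraries compared were fitted (limma adjusted p = 0.0836 and 0.0875). Vim and Prom1 across age in mutants passed in all 10 alternatives and all 8 analyses without a library. In the comparisons between Cre lines and ages none of the 6 genes passed in the 9 alternatives fitted to all libraries.

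Counts of genes passing depended more on the processing. DESeq2 called 358 in Sox1Cre mutants at E13.5 (152 in limma), 37 in NestinCre mutants (11), 298 at E12.5 (119), 98 between Cre lines (7), 20 between ages (0) and 152 between the control groups (40). Array weights gave 962, 17, 577 and 369 for the first 4 of these, 108 between the control groups, and 3244 across age in controls (1892). With only the libraries compared the counts were 43 in Sox1Cre mutants at E13.5, 13 between Cre lines and 2149 across age in mutants (4263). NestinCre mutants had 5 without a filter, 5 with a mean of at least 100, 5 in edgeR and 2 with the Xist covariate, with which 0 genes passed across age in controls. A mean of at least 100 left 22 between the control groups. Without single libraries the counts ranged from 90 to 514 in Sox1Cre mutants at E13.5 (514 without A1), from 2 to 7 in NestinCre mutants, from 50 to 136 at E12.5, from 5 to 144 between Cre lines (144 without A1), from 0 to 1 between ages, from 794 to 2629 across age in controls and from 11 to 31 between the control groups. No paired analysis was possible because the sources used here do not state which libraries shared a litter. Depth limits none of the 6 genes, whose lowest value was 2825 normalized counts; the spread between 4 libraries does, most of all for Ezr.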
